A study of Aspergillus nidulans with 38 samples.

Results

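The genes described here are the 88 of 9541 in *Aspergillus nidulans* whose transcript level had fallen in each of 3 shake flasks by 120 min of exposure to micafungin. They were chosen from raw counts divided by the total of the library and scaled to CPM, which expresses the reads of a gene relative to its library. For each time, r is the log2 ratio of CPM + 1 to CPM + 1 in the 0 min library of the same flask. A gene was a member when its mean CPM at 0 min was 5 or more, its mean r at 120 min was -1.3 or lower, and r was -0.7 or lower in each flask. Of the 9541 genes, 6952 reached the starting level, and the members are 1.27% of them. The 0 and 120 min libraries thus chose the members, and values from them are given as a description with no test.

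RNA was sequenced from the parental strain, FGSC A1405 (AN1405 in the labels), grown in low pH YGV medium at 28 °C for about 20 h. Micafungin was then added at 20 ng/ml per 1 g/kg of biomass, and mycelium was taken at 13 times, every 5 min from 0 to 30 min, every 10 min up to 60 min, and at 75, 90 and 120 min. The 3 biological replicates are 3 flasks sampled in series, called flasks 1, 2 and 3 here after their replicate numbers, and give 3 libraries at each time except 15 min, which has 2. All libraries share 1 strain, and the 0 min libraries are the untreated samples. Time in culture and exposure to the drug cannot be told apart, since no untreated flask of the same age was analysed here.

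The fungal cell wall is a mesh of β-glucan and chitin that carries mannoproteins, and micafungin blocks the enzyme that makes the β-glucan. Wall damage is sensed at the cell surface and passed through a MAP kinase cascade, the cell wall integrity pathway. A growing mycelium also secretes enzymes that digest polymers and proteins, breaks down amino acids for nitrogen, and makes secondary metabolites from genes that lie side by side in clusters. Members with these roles are described in turn, after the time course of the whole set.

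Library totals ranged from 5814843 to 10846567 counted reads. Conidiophore and conidium markers, for the other cell types such a culture could hold, were low at 0 min. Their summed level over 8 genes was 20.2 to 24.5 CPM. At 120 min it was 47.9, 215 and 34.3 CPM in flasks 1, 2 and 3, and *yA*, *wA*, *rodA*, *dewA* and the regulators *abaA* and *wetA* were each at or below 11.7 CPM in every flask. Of the 8, *brlA* and *ivoB* rose from early to late in the test described below, the latter standing at 163 CPM in flask 2. None of the 8 markers is a member, but only 1 of them, *yA*, reached the 5 CPM at 0 min that the rule requires. The others could not have been members whatever their course. The part of other cell types in the fall was not tested. In bulk RNA, fewer cells of a type and less RNA per cell cannot be told apart.

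At 0 min the members spanned mean levels of 7.03 to 1537 CPM, with a median of 48.6 CPM. At 120 min their median was 12.4 CPM. Mean r at 120 min ran from -3.20 to -1.303 with a median of -1.82, and the median was -2.10 in flask 1, -1.46 in flask 2 and -1.76 in flask 3. The members took 1.70%, 1.01% and 1.77% of all counted reads in flasks 1, 2 and 3 at 0 min. At 120 min these shares were 0.39%, 0.32% and 0.51%. Flask 2 thus started with the smallest share of reads on these genes and showed the smallest median fall.

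The condition on each flask removed 18 of the 106 genes with a sufficient mean fall. Flask 2 was the only flask to fail for 10 of them and flask 3 for 6, whereas flask 1 alone removed none. A further 72 genes were past -0.7 in every flask with a mean above -1.3. Just inside the limit on the mean lay *ipnA* (AN2622; mean r -1.303), the isopenicillin N synthase of penicillin synthesis, with AN5019 (-1.320) and AN5402 (-1.325). Just outside lay AN3998 (-1.298), AN2036 (-1.292) and AN3285 (-1.288). The same limits applied upward took in 254 genes.

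**Figure D1:**
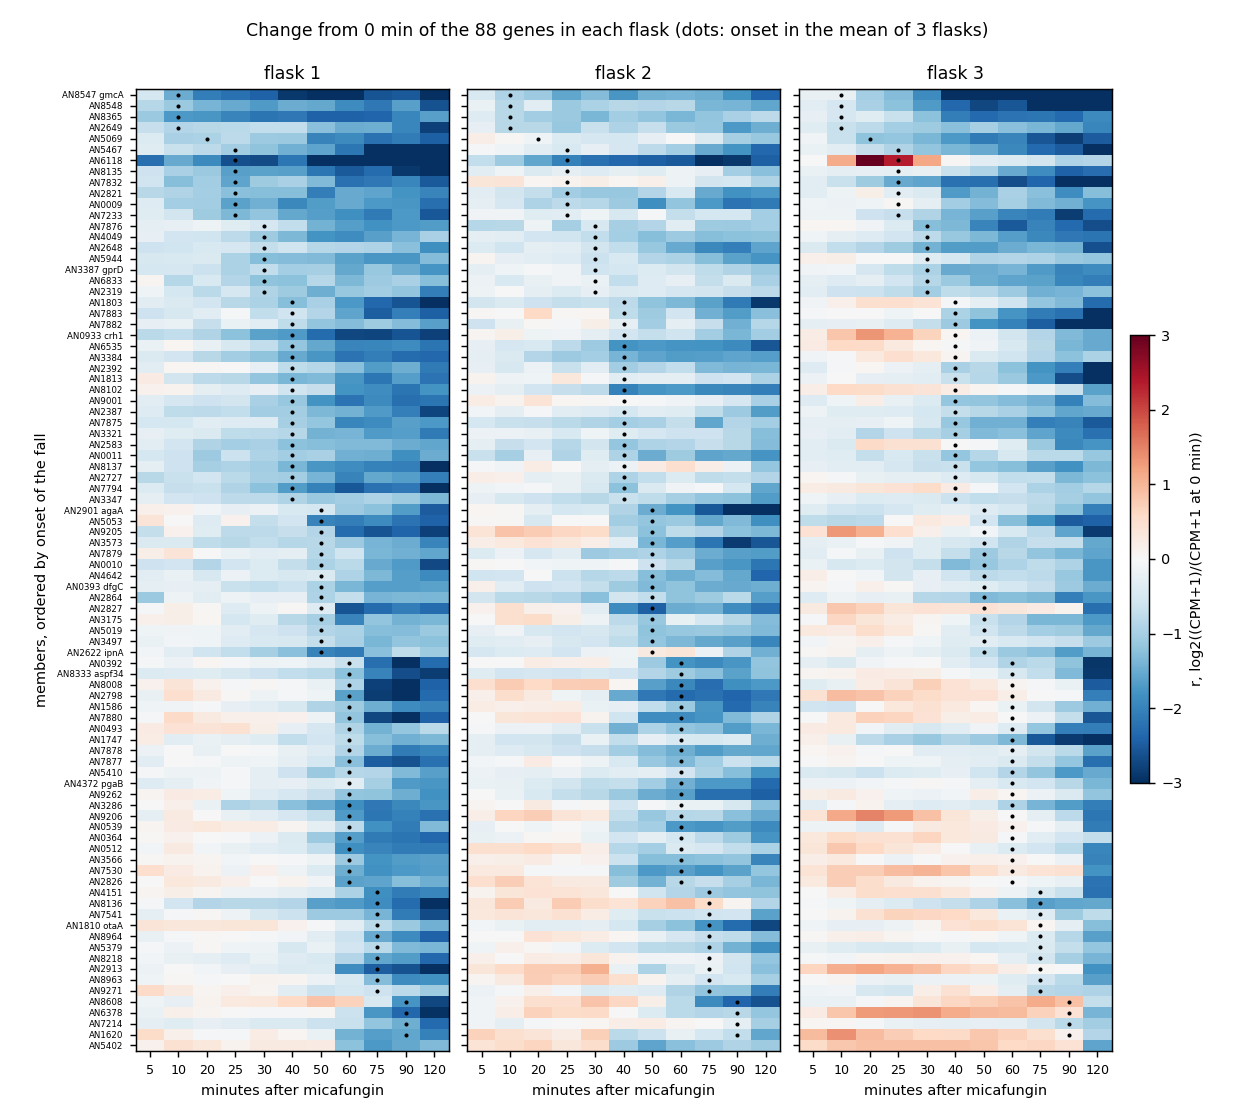
Change from 0 min (r, log2 scale, blue for lower and red for higher) of the 88 members in flasks 1, 2 and 3 at each time from 5 to 120 min. Rows are ordered by the time from which the mean r stayed at -0.7 or lower, marked by a dot, which ran from 10 min for *gmcA* to 90 min, with AN5402 last and without an onset.

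The members did not fall at once. Their median mean r was -0.14, -0.17 and -0.14 at 5, 10 and 20 min. It then moved to -0.36 by 30 min, -0.64 by 40 min, -1 by 60 min and -1.46 by 90 min. The median of the 6864 other genes with 5 CPM or more at 0 min stayed between -0.03 and 0.05 at all of these times and at 120 min. The rule itself fixed the split at 120 min, and r at every time shares its 0 min libraries. This contrast is therefore a description only. The lowest level came at 120 min in 77 members, while 7 were lowest at 90 min and 3 at 75 min. The remaining member, AN8365, annotated with transmembrane transport, was lowest at 60 min.

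Onset was defined as the first time from 5 to 90 min from which mean r stayed at -0.7 or lower up to 90 min. The earliest onset, at 10 min, was seen in 4 members, and 1 followed at 20 min. Another 33 had an onset from 25 to 40 min, 35 from 50 to 60 min and 14 from 75 to 90 min. AN5402, annotated with lipid metabolism, had reached only -0.66 by 90 min. The median onset over the 88 members was 50 min. Taken flask by flask, all 88 members had an onset in flask 1, 71 in flask 2 and 70 in flask 3. Over the members with an onset the medians were 50, 50 and 55 min. Those of flasks 2 and 3 thus leave out the members that had none by 90 min. At 60 min the median r was -1.41 in flask 1, -0.87 in flask 2 and -0.60 in flask 3, so the fall was furthest along in flask 1 and least in flask 3.

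**Figure D2:**
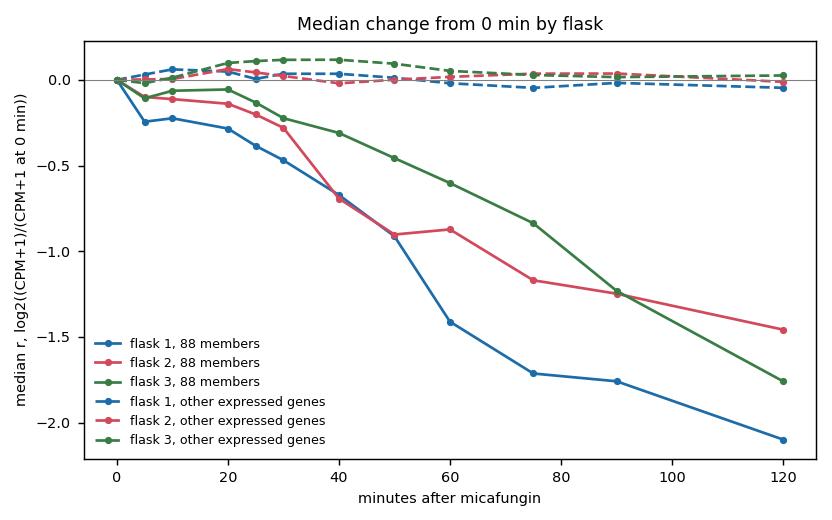
Median r (log2 change from 0 min) against minutes after micafungin for the 88 members (solid lines) and the 6864 other expressed genes (dashed lines) in each flask. The members' median ended at -2.10, -1.46 and -1.76 in flasks 1, 2 and 3, and the other genes stayed near 0.

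At 10 min, 48 of the 88 members had a mean r between -0.3 and 0.3. A further 14 had a mean r of 0.3 or more, against 8.04% of the other expressed genes, and 12 of them were above 0 in every flask. The remaining 26 had a mean r of -0.3 or lower, against 4.5% of the others, and 20 of them were below 0 in every flask. The 14 with the higher r had a median r of 0.54, 0.26 and -0.91 at 10, 30 and 60 min. The 26 with the lower r stood at -0.5, -0.77 and -1.29 at those times. By 120 min the medians were close, at -1.90 and -1.92. The groups were cut on r at 10 min and the rule fixed the range at 120 min, so neither likeness nor difference at those times is a finding. All of these values share the 0 min libraries with the rule.

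The neighbouring genes AN9205 and AN9206, to which no role was assigned, had the highest r at 10 min, 0.75 and 0.68. AN9205 was at 81.5, 43.2 and 74.2 CPM at 0 min and at 89.3, 78.5 and 183 CPM at 10 min in flasks 1, 2 and 3. By 60 min it was at 15.7, 25.2 and 53.4 CPM, below its start in each flask. The pair AN2826, annotated as a zinc-binding transcription factor, and AN2827, a calcium-transporting ATPase, had r of 0.60 and 0.49 at 10 min. AN7880, a fatty acid synthase gene of the aspercryptin cluster, had an r of 0.41.

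The fall was tested on libraries that did not choose the members. Counts were summed within a flask over 5 and 10 min (early), 30 and 40 min (middle) and 75 and 90 min (late), and compared with edgeR's quasi-likelihood test with the flask as a block. The flasks are those of the rule, so this test uses other libraries but not other cultures. All 88 members passed the filter on low counts and were among the 8290 genes tested. Fold changes below are log2 values from this fit, with the standard error (SE).

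From early to late, 44 of the 88 members fell at an adjusted p below 0.05, against 114 (1.38%) of all genes tested, and none rose. Another 224 genes rose, all outside the members. The members' median change was -1.32, against 0.01 over all genes tested. Late was below early in all 3 flasks in 82 members, against 16.7% of all genes. In 47 members, against 10.3% of all genes, every late pool was below every early pool. The members' median difference was -1.53 in flask 1, -0.99 in flask 2 and -1.08 in flask 3. The result leaned on flask 1 and on the block. Without flask 1 no gene of the 8290 was called, although the members' median was still -1.20 and 65 of them, against 4.84% of all genes, had an unadjusted p below 0.05. DESeq2 called 82 members and 5.44% of all genes. Without the block edgeR called 2 members (0.0241% of all genes), AN5944, an ester hydrolase gene, and AN6118, which has no assigned role.

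**Figure D3:**
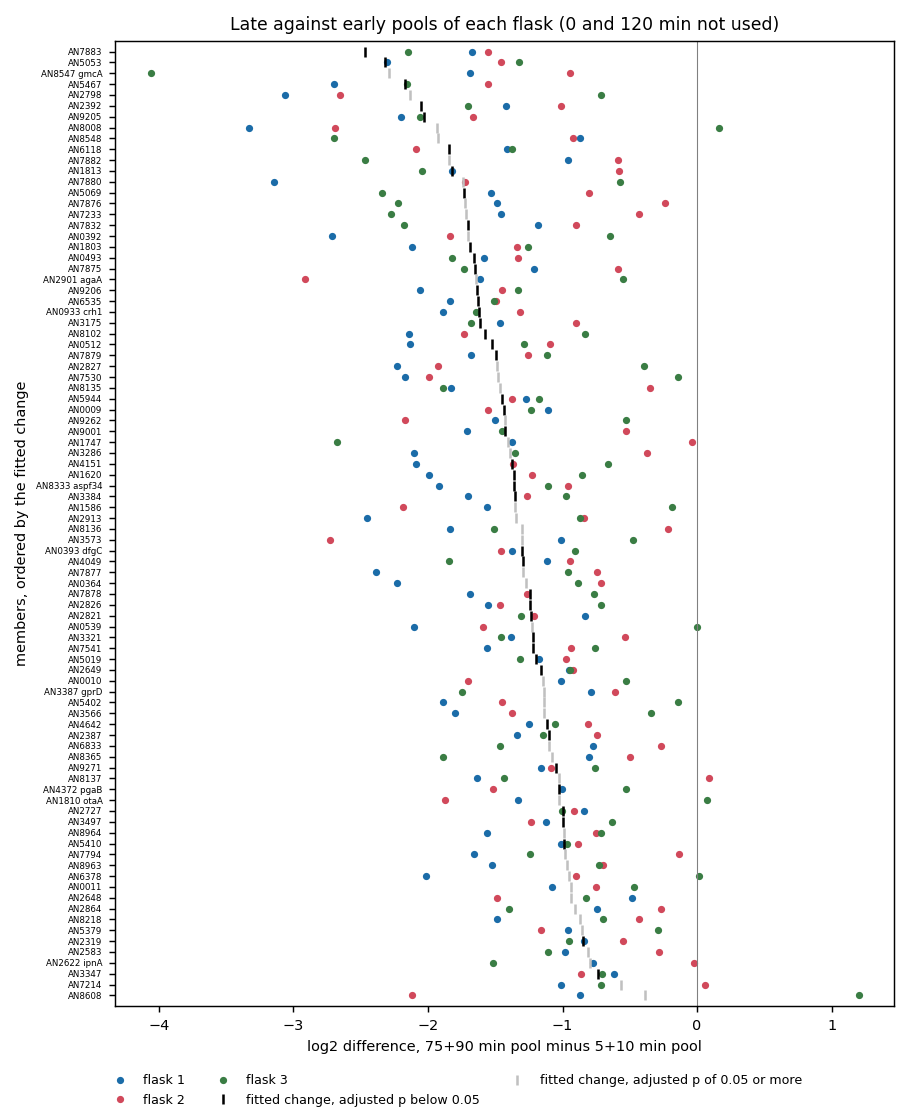
Difference between the late (75+90 min) and early (5+10 min) pools of each flask, as log2 of CPM + 1, for the 88 members, ordered by the fitted log2 change (vertical ticks, black where the adjusted p was below 0.05). The points lie left of 0 for 88 members in flask 1, 86 in flask 2 and 84 in flask 3, and the fitted change of low genes lies further from 0 because it has no pseudocount of 1 CPM.

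The 44 members that did not pass had log2 changes from -2.29 to -0.39, those that passed from -2.46 to -0.73, and all 88 fitted changes were below 0. The smallest came from AN8608, which has no assigned role. Its early pools were at 67.8, 59.2 and 75.6 CPM and its late pools at 36.8, 12.8 and 175 CPM, so that flask 3 went the other way (log2 change -0.39 ± 0.67 SE, adjusted p = 0.787). It dropped in flask 3 only between 90 min, at 162 CPM, and 120 min, at 52.6 CPM.

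From early to middle no gene was called by edgeR or by limma. The members' median change was -0.45, and 32 of them, against 2.24% of all genes, had an unadjusted p below 0.05 in edgeR. DESeq2 called 1 member, AN6535, which has no assigned role, and 0.253% of all genes. From middle to late the median change was -0.89, and both genes called lower of 8290 (0.0241%) were members, AN7883 and AN2392. DESeq2 called 48 members and 1.6% of all genes there. On the members' median, more of the fall thus lay between the middle and late pools than between the early and middle pools. The middle and late pools are also further apart in time than the early and middle pools. The medians therefore do not show that the fall became faster, and its rate was not tested.

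Outside the members, 70 genes fell from early to late. Of these 62 had a mean r above -1.3 at 120 min, 4 failed in a flask and 4 started below 5 CPM. The members are therefore 44 of the 114 genes called lower, chosen by the depth of the fall at 120 min.

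A pair of members act in arginine breakdown. Arginase, encoded by *agaA* (AN2901), splits arginine into ornithine and urea, and the ornithine aminotransferase AN1810 (*otaA*, *car2* in the reference) takes ornithine onward to proline and glutamate. *agaA* was at 1696, 1027 and 1889 CPM at 0 min in flasks 1, 2 and 3. It was at 803, 297 and 1302 CPM at 60 min and at 301, 74.5 and 459 CPM at 120 min. Flask 2 was lowest throughout and flask 3 fell last. In the pools *agaA* went from 1880, 1060 and 1358 CPM early to 615, 140 and 929 CPM late, without overlap, and its log2 change of -1.65 ± 0.42 SE missed the threshold (adjusted p = 0.0814).

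For AN1810 the early pools stood at 1561, 866 and 761 CPM and the late pools at 619, 236 and 801 CPM. It was lower in flasks 1 and 2 and slightly higher in flask 3, where it was at 706 CPM at 90 min and 358 CPM at 120 min (log2 change -1.02 ± 0.35 SE, adjusted p = 0.148). Its neighbour AN1813, which has no assigned role, fell in all 3 flasks, from 11.7, 2.66 and 33.3 CPM to 2.59, 1.44 and 7.31 CPM (log2 change -1.82 ± 0.32 SE, adjusted p = 0.0365). The copper-dependent amine oxidase AN1586, of the enzymes that release ammonia from amines, went from 209, 175 and 92.9 CPM to 70.4, 37.6 and 81.5 CPM. The pools did not overlap, and the change of -1.35 ± 0.35 SE had an adjusted p of 0.0824.

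A list of 19 genes for nitrogen sources included *agaA* but not AN1810. It mixed enzymes that break down nitrogen compounds with transporters, the regulator *areA* (AN8667) and nitrate and nitrite reductase genes. Of the 19, 1 fell and none rose (1.38% of all genes tested fell), 11 changes were below 0 and the median was -0.23. At 120 min the median of mean r over these genes was 0.42, and 10 of the 19 were above 0, with AN9470, AN5613 and AN7451 highest at 3.18, 1.73 and 1.24. The gene that fell was the amine oxidase AN5690 (log2 change -0.68, adjusted p = 0.0287), which is not a member. Its level at 120 min was 27.8, 32.6 and 28.4 CPM against 71.0, 36.1 and 74.2 CPM at 0 min.

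The longest run of neighbouring members was in the aspercryptin cluster, which makes a lipopeptide from fatty-acid and branched-chain amino acid building blocks. All 13 genes of the cluster, AN7872 to AN7884, were tested, and 8 of them are members. From early to late 5 of the 13 fell and none rose (1.38% of all genes tested fell), 12 changes were below 0 and the median was -1.49. The 8 members were chosen for a fall in these flasks, and the list was written with earlier results of these data known. These counts and the median are therefore not a result about the cluster. The 5 were the members AN7875, AN7878, AN7879 and AN7883, which were chosen for their level at 120 min, with AN7881, which had an r of -1.46 at 120 min but is not a member. AN7877 and AN7880 showed like changes without passing, at -1.29 ± 0.36 SE (adjusted p = 0.0935) and -1.74 ± 0.48 SE (adjusted p = 0.0935).

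AN7883, to which no role was assigned, had the largest fitted change of all members (log2 change -2.46 ± 0.18 SE, adjusted p = 0.00564). Its early pools were at 5.16, 3.91 and 19.2 CPM and its late pools at 0.937, 0.670 and 3.56 CPM. All late values were below all early ones. The fit has no pseudocount. As log2 of CPM + 1 its flask differences were -1.67, -1.55 and -2.15, against -2.70, -1.55 and -2.16 in AN5467. AN7879, annotated with ATP-driven transport across membranes, went from 15.3, 10.9 and 32.0 CPM to 4.11, 3.97 and 14.2 CPM. Each flask fell, while the late value of flask 3 lay among the early values of the others (log2 change -1.49 ± 0.17 SE, adjusted p = 0.0105). AN7878 and AN7876 are both annotated as branched-chain amino acid aminotransferases. AN7878 fell from 69.9, 39.9 and 114 CPM to 21, 16 and 66.8 CPM (log2 change -1.24 ± 0.24 SE, adjusted p = 0.046), and AN7876 was at -1.72 ± 0.43 SE (adjusted p = 0.0766).

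Flask 3 held the highest level of each of the 8 cluster members at 0 min. At the edges of the cluster the course differed. AN7872 stood at 24.6, 33.5 and 20.9 CPM at 0 min and at 25.7, 17 and 30.6 CPM at 120 min, with flasks in both directions. AN7873, AN7874 and AN7884 had a mean r of -0.80, -0.87 and -0.95 at 120 min and did not pass the test.

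**Figure D4:**
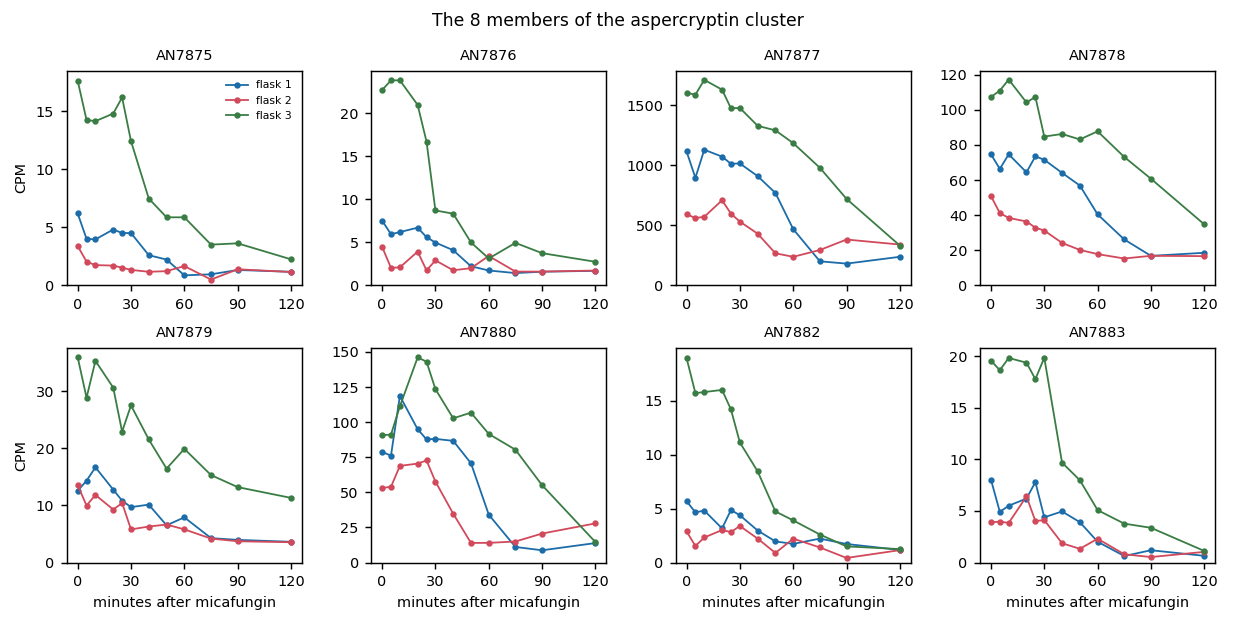
CPM of the 8 aspercryptin cluster members against minutes after micafungin in flasks 1, 2 and 3, each panel on its own axis from 0. Flask 3 starts highest in every panel, and all 3 flasks end below their start.

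Of 42 tested genes in 10 other listed secondary metabolite clusters, 0 fell and 1 rose from early to late by edgeR, against 1.38% and 2.7% of all genes tested. DESeq2 called 1 of the 42 lower, against 5.44% of all genes tested, and limma 0, against 125 of 8290 genes. At an unadjusted p below 0.05 in edgeR 6 of the 42 were lower, with no share over all genes to set beside it. All 13 aspercryptin genes had 5 CPM or more at 0 min, as had all 5 emericellamide and all 3 microperfuranone genes. In the sterigmatocystin cluster 1 of 22 genes did, in DHMBA 2 of 11, and in asperfuranone, cichorine and austinol no gene. Levels at 0 min thus differed between the clusters, and these counts do not set the aspercryptin cluster apart. Whether the low levels hid a fall was not tested. The gene that rose was AN7822 of the sterigmatocystin cluster (log2 change 0.91 ± 0.15 SE, adjusted p = 0.0299). The 5 emericellamide genes all had changes below 0, with a median of -0.38, and an r at 120 min between -0.92 and -0.56, short of the rule. In the penicillin cluster the test gave -0.80 ± 0.32 SE for *ipnA* (adjusted p = 0.192). *ipnA* was at 79.8, 26.2 and 82.0 CPM at 0 min and at 37.8, 8.95 and 30.5 CPM at 120 min. AN2623, next to it, had a mean r of -1.29 at 120 min, just short of the limit.

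Oxidoreductases of the glucose-methanol-choline (GMC) kind and related flavoproteins that act on alcohol groups were 4 of the members. *gmcA* (AN8547) had the lowest r at 120 min of all 88, at -3.20 ± 0.80 (SD, n = 3). It was at 83.9, 24.4 and 175 CPM at 0 min, at 29.4, 12.3 and 149 CPM at 10 min, and at 6.62, 8.67 and 10.4 CPM at 60 min. Flasks 1 and 2 were well below their start at 10 min, while flask 3 dropped later, to 46.4 CPM at 30 min. In flasks 1 and 2 the level was already low within the early pools. The late against early differences were -1.69, -0.95 and -4.06 in flasks 1, 2 and 3, and the fitted change of -2.29 ± 0.59 SE had an adjusted p of 0.0814. The adjacent AN8548, which has no assigned role, also had its onset at 10 min and went from 13.9, 4.68 and 27.9 CPM at 0 min to 1.43, 0.918 and 1.87 CPM at 120 min.

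The other 3 flavoproteins changed later or less. AN2387 fell from 95.8, 41.0 and 115 CPM in the early pools to 37.2, 24.1 and 51.5 CPM in the late pools (log2 change -1.10 ± 0.13 SE, adjusted p = 0.0104). AN8964 was at 1400, 783 and 1788 CPM early and at 474, 466 and 1087 CPM late, lower in each flask at -0.99 ± 0.23 SE (adjusted p = 0.0643), and its onset was 75 min. Its neighbour AN8963 kept pace at -0.97 ± 0.25 SE (adjusted p = 0.08). AN2648 had a change of -0.94 ± 0.32 SE (adjusted p = 0.147). A further 8 members are annotated as other oxidoreductases or monooxygenases. Of these AN2727, AN3497 and AN4151 fell, with log2 changes of -0.997, -0.996 and -1.37.

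Wall proteins were represented by a few members. *crh1* (AN0933) encodes a putative transglycosidase of the kind that joins glucan to chitin. It fell from 583, 264 and 647 CPM in the early pools to 157, 105 and 207 CPM in the late pools, without overlap (log2 change -1.62 ± 0.16 SE, adjusted p = 0.00941). At 0 min it was at 997 CPM in flask 1 against 243 and 442 CPM in flasks 2 and 3, and in flask 3 it stood at 785 CPM at 10 min. *dfgC* (AN0393), of a mannosidase family with a putative role in anchoring wall proteins, went from 41.9, 39.0 and 40.6 CPM to 15.5, 13.6 and 21.2 CPM. Its flasks differed little among themselves (log2 change -1.3 ± 0.16 SE, adjusted p = 0.0125).

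AN8333, named *aspf34* in the reference and known as the cell wall protein PhiA, varied widely between flasks. It was at 84.8, 21.4 and 540 CPM in the early pools and at 21.7, 10.5 and 251 CPM in the late pools. Each flask fell, yet the late value of flask 3 exceeded the early values of flasks 1 and 2 (log2 change -1.36 ± 0.18 SE, adjusted p = 0.0169). The alpha-mannosidase AN3566 did not pass, at -1.14 ± 0.30 SE (adjusted p = 0.0875), and stayed at 331 CPM in the late pool of flask 3 against 118 and 146 CPM in flasks 1 and 2.

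**Figure D5:**
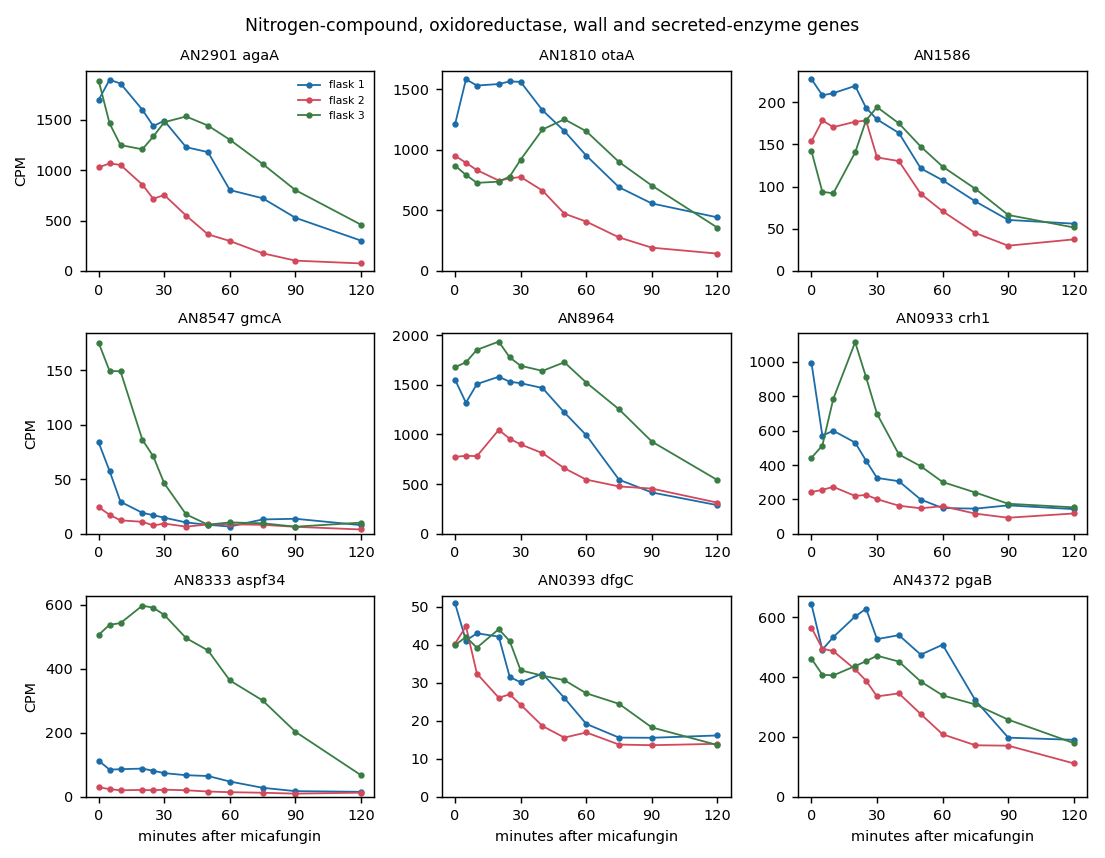
CPM against minutes after micafungin in flasks 1, 2 and 3 for *agaA*, AN1810 (*otaA*), the amine oxidase AN1586, *gmcA*, the flavoprotein AN8964, *crh1*, AN8333 (*aspf34*), *dfgC* and the pectinase *pgaB*, each panel on its own axis from 0. On the mean over flasks *gmcA* has the earliest onset of the 9, at 10 min, while *crh1* has its onset at 5 min in flask 1, and AN1810 and *crh1* pass through a higher level in flask 3. *aspf34* keeps a wide gap between flasks.

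Of 17 listed hydrolases 16 were tested, and 3 fell and 1 rose, against 1.38% and 2.7% of all genes tested, with 10 changes below 0 and a median of -0.33. The 3 that fell are members, chosen for their level at 120 min. The list was written with earlier results of these data known, so their share is not a result about hydrolases. *pgaB* (AN4372), an endopolygalacturonase that cuts pectin, went from 510, 491 and 407 CPM early to 254, 171 and 282 CPM late (log2 change -1.03 ± 0.20 SE, adjusted p = 0.046). AN5944, a carboxylic ester hydrolase, went from 13.3, 12.2 and 12.6 CPM to 4.90, 4.07 and 5.02 CPM (log2 change -1.45 ± 0.17 SE, adjusted p = 0.0107). The third is *dfgC*. The alkaline protease *prtA* (AN5558) rose, from 37.8, 45.3 and 21.2 CPM at 0 min to 308, 446 and 212 CPM at 120 min (log2 change from early to late 2.14, adjusted p = 0.0284).

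Outside that list, the cutinase AN7541 fell from 22.4, 12.3 and 9.09 CPM to 6.92, 5.93 and 4.96 CPM (log2 change -1.22 ± 0.23 SE, adjusted p = 0.0445). Cutinases cleave the plant polyester cutin. Both members annotated as aspartic endopeptidases also fell. AN8102 went from 392, 290 and 432 CPM to 88.1, 86.3 and 242 CPM (log2 change -1.57 ± 0.26 SE, adjusted p = 0.0316), and AN3321 changed by -1.22 ± 0.21 SE (adjusted p = 0.0354). Neither late range reached its early range.

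Transport was assigned to 7 members, of which 3 fell in the test, a share near the 44 of all 88 members. These were the cluster gene AN7879, the amino acid transporter AN3347 and AN9271. AN3347 went from 222, 204 and 328 CPM to 144, 112 and 200 CPM, the smallest change among the 44 called (log2 change -0.73 ± 0.12 SE, adjusted p = 0.0292). The calcium ATPase AN2827 was at 150, 210 and 173 CPM early and at 31.1, 54.6 and 131 CPM late, with flask 3 behind the others (log2 change -1.49 ± 0.41 SE, adjusted p = 0.0935). AN8365 was at 222, 90.3 and 504 CPM at 0 min and at 66.6, 50.3 and 354 CPM at 10 min, the lowest r of the set at that time (-1.02). It reached 40.7, 34.2 and 109 CPM at 60 min and was at 70.8, 52.1 and 133 CPM at 120 min, so that this early fall had partly reversed in each flask.

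Among signalling and regulatory genes, *gprD* (AN3387), a G protein-coupled receptor, went from 20.9, 18 and 37.9 CPM early to 11.7, 11.4 and 10.6 CPM late. Its pools did not overlap, and the change of -1.14 ± 0.26 SE missed the threshold (adjusted p = 0.0655). The nearby AN3384, annotated as an acyltransferase, fell from 109, 67.6 and 102 CPM to 32.9, 27.5 and 51.3 CPM (log2 change -1.36 ± 0.22 SE, adjusted p = 0.0292). The zinc-binding transcription factor AN2826 fell by 1.24 on the log2 scale (adjusted p = 0.0481).

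Several of the largest tested changes belonged to genes of little or no annotation. A role could be given for 47 of the 88 members, and 23 of these and 21 of the remaining 41 were called. AN5053, annotated as an N-acetyltransferase, went from 11.1, 4.29 and 7.53 CPM to 1.44, 0.928 and 2.42 CPM (log2 change -2.32 ± 0.41 SE, adjusted p = 0.0374). AN5467 fell from 182, 83.8 and 284 CPM to 27.2, 27.9 and 62.9 CPM (log2 change -2.17 ± 0.23 SE, adjusted p = 0.00941) and had an r at 120 min of -3.10 ± 0.73 (SD, n = 3).

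AN9205 went from 66.4, 67.2 and 141 CPM to 13.7, 20.5 and 32.9 CPM (log2 change -2.03 ± 0.18 SE, adjusted p = 0.00768). AN2392, annotated with protein dimerization, fell from 5.53, 1.74 and 10.5 CPM to 1.44, 0.361 and 2.54 CPM (log2 change -2.05 ± 0.19 SE, adjusted p = 0.00768). AN5069, AN7832, AN1803 and AN0493 had log2 changes of -1.73, -1.71, -1.68 and -1.65 and adjusted p values from 0.0102 to 0.0424. In all 4 each flask fell.

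AN6118 did not follow 1 course in the 3 flasks. It was at 64.6 and 42.3 CPM at 0 min in flasks 1 and 2, and at 16.6 and 13.6 CPM by 20 min. In flask 3 it started at 8.21 CPM, reached 76.7 CPM at 20 min and was back at 8.45 CPM at 40 min. The late pools, at 5.62, 4.48 and 4.58 CPM, were close in all flasks and below the early pools of 16.7, 22.3 and 13.5 CPM (log2 change -1.85 ± 0.28 SE, adjusted p = 0.0274).

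By the gene order of the reference, in which 86 members were found, 31 members lay within 5 annotated genes of another member. They formed 12 runs, and 24 members were immediately next to another. The aspercryptin run held 7 of the members in the reference, since AN7882 is not listed there. The runs AN0009 to AN0011 and AN8135 to AN8137 held 3 members each, and the other 9 runs were pairs. Of AN0009, AN0010 and AN0011, AN0009, annotated with hydrolase activity, fell (log2 change -1.43 ± 0.23 SE, adjusted p = 0.0292), and the other 2, marked as pseudogenes in the reference, changed by -1.15 and -0.94 without passing. AN8135, annotated with transfer of hexosyl groups, and its neighbours AN8136 and AN8137 changed by -1.47, -1.3 and -1.03 with adjusted p values of 0.0643, 0.0759 and 0.139. AN8137 was slightly higher late than early in flask 2, at 11.3 against 10.6 CPM. In the pair with *dfgC*, AN0392 went from 82.4, 71.5 and 110 CPM to 11.7, 19.3 and 69.8 CPM (log2 change -1.70 ± 0.39 SE, adjusted p = 0.0643).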

How the data were processed

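Libraries were assigned to times and flasks by their labels. Single-end reads had been aligned by the authors (HISAT2) to the FGSC A4 genome of Ensembl Fungi, and HTSeq-count had given the reads of each gene. The annotation release and the strand setting were not given in the sources used here. They deposited raw counts, used here, beside normalized values (71 columns, not used) and their own DESeq2 fold changes and p-values (not used). The second 15 min library is labelled replicate 3 while its column carries the number of replicate 2, so 15 min was left out of fold changes.

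Counts were divided by the library total to give CPM, and a pseudocount of 1 CPM was added before r was taken. A gene was tested if 2 or more replicates had reads for it at every time point (8290 genes). Counts summed per flask gave 9 pools of 13561177 to 19403216 reads, fitted together in R 4.3.3 with edgeR 4.0.16 (TMM, quasi-likelihood test, flask as block, Benjamini-Hochberg over 8290 genes, threshold 0.05). The script was tested on simulated counts drawn without a flask effect, which cannot speak to the block. SEs are from that fit. DESeq2 1.42.0, limma 3.58.1, other filters, scalings and pools, no block and leaving out each flask were alternatives. Replicate numbers were taken to mark the same flask at each time, and the block rests on this. Between early and late pools the correlations below lay near 0, so they do not bear the pairing out there. Deviations of a flask's pools from the group means correlated at 0.383 (early and middle), 0.0273 (early and late) and 0.018 (middle and late) in flask 1, 0.617, -0.0833 and 0.39 in flask 2, and 0.393, 0.0502 and 0.441 in flask 3, across genes.

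The members and gene lists were chosen with earlier results of these data known. Genes were named by rule: the 12 largest called falls, the 6 highest CPM at 0 min (not corrected for length), the 4 longest neighbour runs (ties by reference order), up to 15 with a name, the earliest and latest onsets, those nearest the limit, and list members. AN6535, AN2826, AN2387, AN2727, AN3497, AN4151, AN8102, AN3321, AN3347, AN9271, AN3384, AN9206, *prtA*, AN5690, AN7881, AN7822, AN9470, AN5613, AN7451 and other genes outside that rule were named after their values were seen. Roles came from the study's annotation tables and the reference symbols (assembly ASM1142v1, used for names and gene order only). List entries whose number has another symbol there were dropped. No sequence was used.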

Additional observations from a re-analysis of the deposited data

How the results depend on the processing

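The membership rule gave 51 genes, all of them members, with a pseudocount of 5 CPM. It gave 69 to 97 genes with a pseudocount of 0.5, other starting levels or other scalings, and 113 to 135 when 1 flask was left out. Without flasks 1, 2 and 3 in turn, 75, 82 and 78 of the 88 members were among these. The median onset was 40 min at an r of -0.5, 60 min at an r of -1, and 60 min with 5 min as the base. Without flask 1, 2 or 3 it was 50 min each time, over 79, 85 and 88 genes with an onset.

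From early to late, 44 members and 114 genes were called lower and 224 genes higher. Without the replicate block these were 2, 2 and 13. DESeq2 gave 82, 451 and 689, and the pools cut to 5, 30 and 75 min alone gave 28, 44 and 112. With 50 and 60 min as the late pool, chosen after seeing the data, they were 0, 0 and 1. Leaving out each flask in turn gave 0 to 36 members lower, 0 to 141 genes lower and 0 to 347 higher, and the zeros came without flask 1. AN8608 changed sign, from -0.39 to 0.16 without the replicate block, 0.31 without flask 2 and 0.56 with the 50 and 60 min pool, and was at -1.46 without flask 3.

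From early to middle no gene was called. DESeq2 gave 1 member and 21 genes lower and 27 higher, and leaving out a flask gave 0 to 2 genes lower and 0 to 41 higher. From middle to late, 2 members (no other gene) were called lower and 18 genes higher. Without the replicate block these were 0 and 0, with DESeq2 48 members, 133 genes lower and 300 higher, and with no filter on low counts 5 members (no other gene) and 28. The pools of 10, 40 and 90 min and of 5, 30 and 75 min each gave 1 gene lower, a member, and the second gave 10 higher. Leaving out a flask gave 0 to 3 members, 0 to 16 genes lower and 0 to 130 higher. DESeq2's size factors in edgeR, limma and filterByExpr kept each of these counts within 1.5 times. The causes of the differences were not tested. With 3 flasks and a block, the count of calls rests on few degrees of freedom. Promoter motifs were not searched, and gene lengths were not used here.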

Other observations

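At 15 min the members took 1.59% of the reads in flask 1 and 1.92% in the second library, whose flask is uncertain. Against the 0 min libraries of flasks 1, 2 and 3, the median log2 ratio of CPM + 1 over the 88 members in that library was 0.26, 1.13 and 0.01. The median r of flask 1 at 15 min was -0.22.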
